A study of Mus musculus with 12 samples.

Results

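The 10 genes described here encode Eph receptors and their membrane-bound ligands, the ephrins, in the embryonic mouse cerebral cortex. They are 7 receptors (Epha3, Epha4, Epha5, Epha7, Ephb1, Ephb2 and Ephb3) and 3 ephrins (Efna5, Efnb1 and Efnb2), picked by gene symbol from the 24411 genes of the deposited tables. All 10 passed the filter on low counts, which left 14311 genes to test. Messenger RNA was sequenced from cortices of 12 single embryos. The groups were HARE5Hs/Hs at E14.5 (E for embryonic day), WT at E14.5, HARE5Hs/Hs at E12.5 and WT at E12.5, with 3 embryos in each. HARE5 is an enhancer of the Wnt receptor gene Fzd8, and HARE5Hs/Hs knock-in mice carry its human version on both alleles; WT mice keep the mouse enhancer. Strain, litter and sex are not labelled.

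Eph receptors are receptor tyrosine kinases that bind ephrins on neighbouring cells, and signals run both into the receptor-bearing cell and back into the ephrin-bearing cell. Ephrin-A proteins are held in the membrane by a lipid anchor and bind mostly EphA receptors, whereas ephrin-B proteins span the membrane and bind mostly EphB receptors; EphA4 binds both. In the developing cortex the system is known for growth cone repulsion and topographic maps of axons, for area boundaries, for the spread of migrating neurons and for contacts between radial glia, the neural stem cells of the cortex.

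Total counts ran from 11593202 to 17670103 per library. The 4 cerebral cortex markers Emx1, Emx2, Lhx2 and Tbr1 were detected in every group, with summed levels of 779 to 839.8 CPM in E14.5 HARE5Hs/Hs, 765 to 915 CPM in E14.5 WT, 699 to 732 CPM in E12.5 HARE5Hs/Hs and 634 to 848 CPM in E12.5 WT libraries. CPM is the count of a gene scaled to library size, after TMM scaling of the libraries. Fzd8 averaged 53.5 ± 3.4 CPM in E14.5 HARE5Hs/Hs, 52.9 ± 2.4 CPM in E14.5 WT, 61.7 ± 17.7 CPM in E12.5 HARE5Hs/Hs and 58.1 ± 12.3 CPM in E12.5 WT cortex (SD, n = 3 each). These are RNA levels of whole tissue, in which fewer cells of a type and less RNA per cell cannot be told apart. The 7 neuron markers (Tubb3, Dcx, Map2, Stmn2, Neurod2, Neurod6 and Bcl11b) were all higher at E14.5 in both genotypes, and their summed level was 4176 to 5843 CPM in E14.5 HARE5Hs/Hs, 3414 to 4484 CPM in E14.5 WT, 1276 to 2309 CPM in E12.5 HARE5Hs/Hs and 1368 to 1458 CPM in E12.5 WT libraries. The 8 markers of meninges and mesenchyme summed to 10.9 to 437 CPM in E14.5 HARE5Hs/Hs, 93.7 to 844 CPM in E14.5 WT, 1167 to 2041 CPM in E12.5 HARE5Hs/Hs and 1317 to 2210 CPM in E12.5 WT libraries. The 8 endothelial markers summed to 102 to 192 CPM in E14.5 HARE5Hs/Hs, 102 to 231 CPM in E14.5 WT, 281 to 394 CPM in E12.5 HARE5Hs/Hs and 293 to 390 CPM in E12.5 WT libraries. The part of these lists in the changes below was not tested.

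The 250 bases before the start site of the 3 genes with the largest age changes are shown because Epha5 and Epha3 went up with age while Efna5 went down. They are RefSeq sequences of build GRCm38.p6, printed 5′ to 3′ on the gene's strand with each CG dinucleotide in capitals. Epha5 lies on the minus strand at chr5:84417383-84417632, Epha3 on the minus strand at chr16:63864176-63864425 and Efna5 on the minus strand at chr17:62881318-62881567.
Epha5: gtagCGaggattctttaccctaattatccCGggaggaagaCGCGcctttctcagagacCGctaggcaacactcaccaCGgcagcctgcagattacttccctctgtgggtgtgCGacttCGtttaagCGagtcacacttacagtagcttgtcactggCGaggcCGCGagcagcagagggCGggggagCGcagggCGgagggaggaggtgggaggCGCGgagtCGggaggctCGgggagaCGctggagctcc
Epha3: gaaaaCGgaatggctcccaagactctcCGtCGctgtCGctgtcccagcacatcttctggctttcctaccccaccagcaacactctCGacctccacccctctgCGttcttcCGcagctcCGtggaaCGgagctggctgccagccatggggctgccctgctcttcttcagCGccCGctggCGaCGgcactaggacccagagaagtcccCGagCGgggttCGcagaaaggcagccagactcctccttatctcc
Efna5: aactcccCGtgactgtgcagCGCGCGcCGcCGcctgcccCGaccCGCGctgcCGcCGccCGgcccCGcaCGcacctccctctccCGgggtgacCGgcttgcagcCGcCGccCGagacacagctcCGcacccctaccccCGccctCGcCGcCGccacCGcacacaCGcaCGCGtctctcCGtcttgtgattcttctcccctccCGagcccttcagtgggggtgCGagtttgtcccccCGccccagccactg
These windows are rich in CG in both directions of change. Efna5 had 32 CG dinucleotides and a GC content of 74.8%, Epha5 had 20 and 62.4%, and Epha3 had 16 and 62.8%. The table held a window for each of the 10 genes, 11 in all because Epha7 had 2, and the lowest CG count among them was 10, in Ephb1. Over all 32851 promoters of the same length the median was 6 CG and 52.4% GC, and 37.8% of promoters had at least 10 CG. Searched on both strands, the TCF/LEF motif written as CTTTGAA or CTTTGAT was in none of the 11 windows and in 7.48% of all promoters. A proneural E-box, CAGATG or CAGCTG, was in 25.5% of all promoters and in the Ephb3 window alone among the 10 genes, 137 bases before the start site. The NFI palindrome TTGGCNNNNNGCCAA was in none of the 11 windows and in 0.0365% of all promoters. No 2 of the motifs matched in the same window among the 10 genes, and a match is a description of the letters in the window.

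Between E12.5 and E14.5 the EphA receptors Epha3, Epha4 and Epha5 and the ligand Efnb2 rose in both genotypes, and the ligand Efna5 fell in both. Epha5 changed most, 5.74-fold in HARE5Hs/Hs and 7.65-fold in WT, and Efna5 fell to 0.238 of its E12.5 level in HARE5Hs/Hs and 0.292 in WT. Ephb1 rose in WT. In HARE5Hs/Hs 5 of the 10 genes passed edgeR's quasi-likelihood test with a Benjamini-Hochberg adjusted p under 0.05 over the 14311 genes, 4 higher and 1 lower. Among all tested genes 45.7% passed in that comparison, 23.7% higher and 22% lower. In WT 6 of the 10 passed, 5 higher and 1 lower, against 35.2% of all tested genes, 20% higher and 15.2% lower. That is 5041 genes in WT, and 3245 without E14.5 WT replicate 1. The median log2 fold change of the 10 genes was 0.35 in HARE5Hs/Hs and 0.25 in WT, beside medians over all tested genes of -0.031 in HARE5Hs/Hs and -0.0087 in WT. For the other 12 family genes it was -0.08 in HARE5Hs/Hs and -0.45 in WT. The 10 genes were chosen with earlier results of these data known, so no reading of the family is drawn from their counts or medians. With limma on log2(FPKM + 1) 5 of the 10 passed in HARE5Hs/Hs and 6 in WT, and DESeq2 called 6 of the 10 in each genotype. Where nothing labels litters, p-values measure the spread between these single embryos. "edgeR adjusted p" below stands for the test just named, and an SE is that of a log2 fold change.

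**Figure D1:**
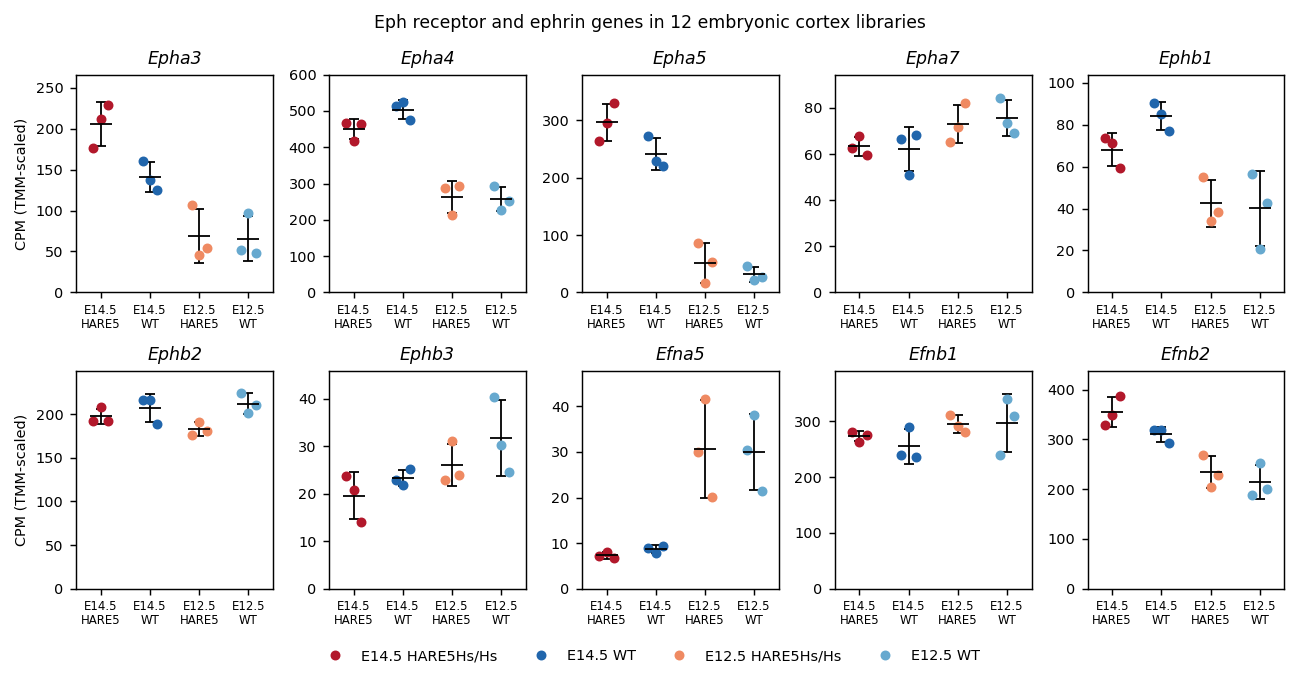
Levels of the 10 Eph and ephrin genes in CPM (linear axes from 0), 1 panel per gene; coloured points are single embryos, black bars the mean and SD of n = 3. Epha5, Epha3, Epha4 and Efnb2 lie higher in all E14.5 libraries than in all E12.5 libraries, Efna5 lies lower, and Ephb2 stays between 176 and 224 CPM.

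Epha5, an EphA receptor best known from retinal and cortical axon mapping, had 265, 296 and 329.9 CPM in E14.5 HARE5Hs/Hs cortex and 273, 229.9 and 221 CPM in E14.5 WT cortex, in the order of replicates 1 to 3. At E12.5 it had 86.4, 16.25 and 52.7 CPM in HARE5Hs/Hs and 46.3, 22.4 and 26.0 CPM in WT. All 6 E14.5 libraries lay above all 6 E12.5 libraries. The log2 fold change was 2.52 in HARE5Hs/Hs (SE 0.44, edgeR adjusted p = 0.000733) and 2.94 in WT (SE 0.45, edgeR adjusted p = 0.000617). At each age and in each genotype the 3 libraries had the same order for Epha5 as for the summed neuron markers, and E12.5 HARE5Hs/Hs replicate 1, the highest of the E12.5 libraries for Epha5, also had the highest E12.5 neuron sum, 2309 CPM. How many of all tested genes shared the order of the neuron sums was not counted. Leaving out E12.5 HARE5Hs/Hs replicate 1 gave a log2 fold change of 3.13 in HARE5Hs/Hs.

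Epha3, a receptor for ephrin-A ligands expressed on subsets of cortical neurons, had 177, 212 and 229 CPM in E14.5 HARE5Hs/Hs and 161, 137 and 125 CPM in E14.5 WT cortex. At E12.5 it had 107, 45.2 and 54.4 CPM in HARE5Hs/Hs and 51.5, 96.9 and 48.7 CPM in WT. One library in each E12.5 group stood above the other two, replicate 1 in HARE5Hs/Hs and replicate 2 in WT, and both stayed below every E14.5 library. The log2 fold change was 1.58 in HARE5Hs/Hs (SE 0.31, edgeR adjusted p = 0.00153) and 1.10 in WT (SE 0.31, edgeR adjusted p = 0.0157). The WT call rested on single libraries: it was 0.93 (edgeR adjusted p = 0.0579) without E12.5 WT replicate 1, 0.94 (edgeR adjusted p = 0.0618) without E12.5 WT replicate 3 and 0.98 (edgeR adjusted p = 0.0630) without E14.5 WT replicate 1. Over 14 alternatives the adjusted p for WT ran between 0.00516 and 0.063. The authors' deposited table gives 1.08 with an SE of 0.50 and an adjusted p of 0.0833 for WT.

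Epha4, the receptor that binds both ligand classes and is known for guiding corticospinal axons, had 465, 418 and 465 CPM in E14.5 HARE5Hs/Hs and 513, 524 and 474 CPM in E14.5 WT cortex. At E12.5 it had 286, 213 and 293 CPM in HARE5Hs/Hs and 294, 227 and 253 CPM in WT. The ages did not overlap in either genotype. The log2 fold change was 0.77 in HARE5Hs/Hs (SE 0.12, edgeR adjusted p = 0.000422) and 0.97 in WT (SE 0.12, edgeR adjusted p = 0.000238).

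Epha7, which marks cortical area boundaries and has a truncated form that can act in adhesion, was the only EphA receptor of the 4 that did not pass in either genotype. It had 62.6, 67.8 and 59.8 CPM in E14.5 HARE5Hs/Hs, 66.6, 51.1 and 68.4 CPM in E14.5 WT, 65.4, 71.6 and 82.1 CPM in E12.5 HARE5Hs/Hs and 84.3, 73.5 and 69.2 CPM in E12.5 WT cortex. WT libraries of the 2 ages did not overlap, and HARE5Hs/Hs libraries did. Its log2 fold change was -0.20 in HARE5Hs/Hs (95% interval -0.47 to 0.06, edgeR adjusted p = 0.193) and -0.29 in WT (-0.55 to -0.02, edgeR adjusted p = 0.0897). Gene-level counts do not separate the truncated form from the full-length one.

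Of the 3 EphB receptors Ephb1 passed in WT, and Ephb2 and Ephb3 passed in neither genotype. Ephb1, which steers axons at the midline of the visual system, had 73.7, 71.4 and 59.4 CPM in E14.5 HARE5Hs/Hs and 90.6, 85.0 and 77.1 CPM in E14.5 WT cortex. At E12.5 it had 54.9, 34.0 and 38.4 CPM in HARE5Hs/Hs and 56.5, 20.8 and 42.9 CPM in WT. E14.5 libraries lay above E12.5 libraries in both genotypes. The log2 fold change was 0.69 in HARE5Hs/Hs (SE 0.28, edgeR adjusted p = 0.0587) and 1.07 in WT (SE 0.28, edgeR adjusted p = 0.0105). In HARE5Hs/Hs it passed with DESeq2 (adjusted p = 0.0228) and, at a log2 fold change of 0.93, without E12.5 HARE5Hs/Hs replicate 1 (edgeR adjusted p = 0.0229). Over 14 alternatives the adjusted p for HARE5Hs/Hs ran between 0.0184 and 0.175, and the authors' deposited table gives 0.0142. The difference between the genotypes in the age change was itself not called, at -0.39 with a 95% interval of -1.23 to 0.46 (edgeR adjusted p = 0.928). In a GENCODE annotation of GRCm38, 152 exonic bases of Ephb1 overlap a non-coding gene on the opposite strand, Gm26846, and whether the counting used strand is not given in the sources used here.

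Ephb2, a receptor known for its part in dendritic spines and axon guidance, had 192, 208 and 192 CPM in E14.5 HARE5Hs/Hs, 216, 216 and 188 CPM in E14.5 WT, 176, 191 and 181 CPM in E12.5 HARE5Hs/Hs and 224, 201 and 211 CPM in E12.5 WT cortex. The ages overlapped in WT, and in HARE5Hs/Hs the E14.5 libraries all lay above the E12.5 ones by a narrow margin. The log2 fold change with age was 0.11 in HARE5Hs/Hs (95% interval -0.05 to 0.28, edgeR adjusted p = 0.246) and -0.03 in WT (-0.20 to 0.13, edgeR adjusted p = 0.751). Ephb3, which shares ligands with Ephb2, was lower in mean at E14.5 without passing the test. It had 23.8, 20.8 and 14.1 CPM in E14.5 HARE5Hs/Hs, 22.8, 21.9 and 25.2 CPM in E14.5 WT, 22.9, 31.2 and 23.9 CPM in E12.5 HARE5Hs/Hs and 40.4, 30.2 and 24.6 CPM in E12.5 WT cortex. Its groups overlapped between ages in both genotypes, with log2 fold changes of -0.41 in HARE5Hs/Hs (SE 0.21, edgeR adjusted p = 0.133) and -0.44 in WT (SE 0.21, edgeR adjusted p = 0.117).

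Of the 3 ephrins Efna5 fell, in both genotypes. Ephrin-A5 is known from mouse as a repulsive guide of retinal and thalamic axons. The gene had 7.12, 8.10 and 6.65 CPM in E14.5 HARE5Hs/Hs and 9.03, 7.83 and 9.43 CPM in E14.5 WT cortex. At E12.5 it had 30.0, 41.7 and 20.2 CPM in HARE5Hs/Hs and 30.5, 38.1 and 21.4 CPM in WT. Every E12.5 library was above every E14.5 library, and replicate 2 was the highest at E12.5 in both genotypes. The log2 fold change was -2.07 in HARE5Hs/Hs (SE 0.26, edgeR adjusted p = 0.000128) and -1.78 in WT (SE 0.26, edgeR adjusted p = 0.000478). Efna5 fell alongside markers of several cell types and tissues. Of the 8 radial glia markers 5 fell and 1 rose in HARE5Hs/Hs, and 3 fell and 2 rose in WT. Of the 8 endothelial markers 8 fell in HARE5Hs/Hs and 6 in WT. Of the 8 meninges markers 7 fell in HARE5Hs/Hs and 3 in WT, and of the 5 diencephalon markers 4 fell in HARE5Hs/Hs and 5 in WT. Among all tested genes 22% fell in HARE5Hs/Hs and 15.2% in WT. Other lists changed less: of the 8 ventral telencephalon markers 2 fell in HARE5Hs/Hs and 1 in WT, and of the 5 microglia markers 0 fell in either. The 5 diencephalon markers summed to 10.9 to 12.4 CPM in E14.5 HARE5Hs/Hs, 12.3 to 13.0 CPM in E14.5 WT, 29.6 to 65.0 CPM in E12.5 HARE5Hs/Hs and 51.6 to 72.8 CPM in E12.5 WT libraries, with Gbx2, Foxb1 and Shox2 at 0 in E14.5 WT. The part of any of these lists in the fall of Efna5 was not tested.

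Of the ephrin-B ligands Efnb2 rose in both genotypes, and Efnb1 passed in neither. Efnb2, also a marker of arterial endothelium, had 329, 349 and 388 CPM in E14.5 HARE5Hs/Hs and 319.5, 319.1 and 293 CPM in E14.5 WT cortex. At E12.5 it had 269, 205.5 and 229 CPM in HARE5Hs/Hs and 188, 253 and 201 CPM in WT. The ages did not overlap in either genotype. It rose by a log2 fold change of 0.60 in HARE5Hs/Hs (SE 0.12, edgeR adjusted p = 0.0019) and 0.54 in WT (SE 0.12, edgeR adjusted p = 0.00545), while the summed endothelial markers were lower at E14.5. Efnb1, an X-linked gene that in mouse keeps cortical progenitors undifferentiated, had 280.1, 264 and 276 CPM in E14.5 HARE5Hs/Hs, 239, 290.2 and 235 CPM in E14.5 WT, 312, 292 and 280.4 CPM in E12.5 HARE5Hs/Hs and 239, 340.5 and 311 CPM in E12.5 WT cortex. The ages overlapped in WT, and in HARE5Hs/Hs the E14.5 libraries all lay below the E12.5 ones by a narrow margin. It did not pass in HARE5Hs/Hs (-0.11, SE 0.12, edgeR adjusted p = 0.477) or in WT (-0.22, SE 0.12, edgeR adjusted p = 0.171). Without E12.5 WT replicate 1 the WT change was -0.38 (edgeR adjusted p = 0.0114), and over 14 alternatives its adjusted p ran between 0.0114 and 0.61. In each group 1 of 3 libraries had Xist, the transcript of the inactive X chromosome, at under 1 CPM, and with Xist as a covariate Efnb1 remained uncalled in both genotypes.

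**Figure D2:**
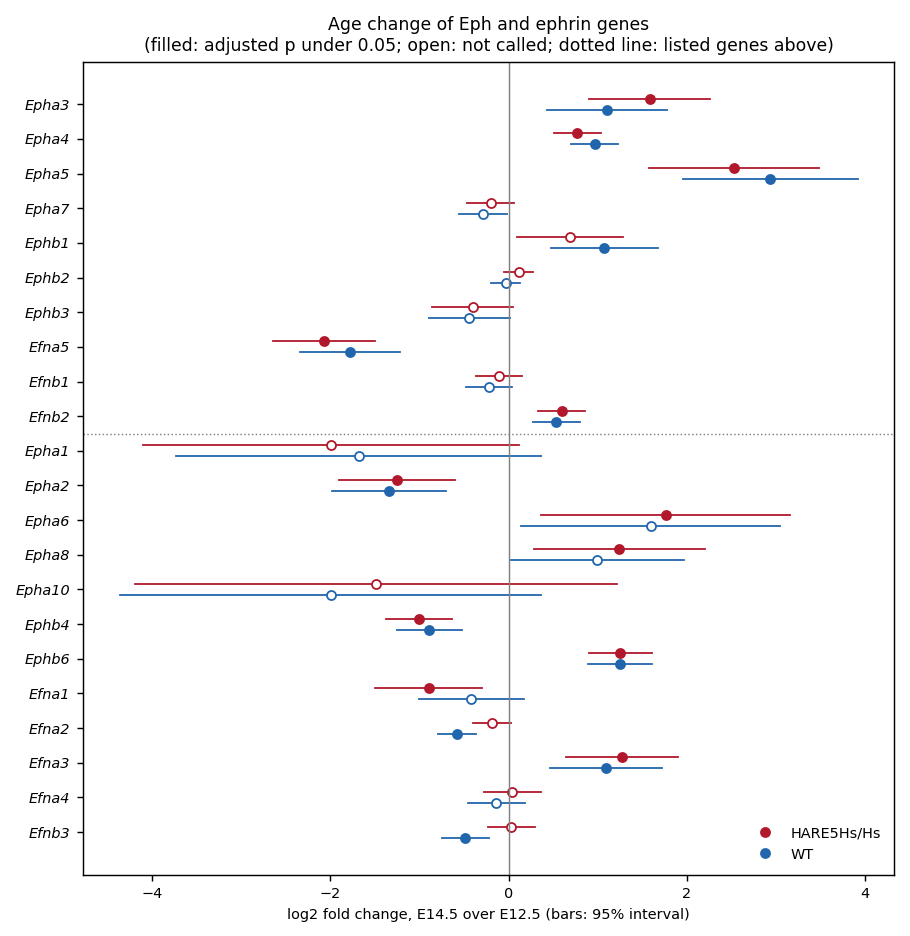
Log2 fold change from E12.5 to E14.5 in HARE5Hs/Hs (red) and WT (blue) with 95% intervals, for the 10 genes described here above the dotted line and for the other 12 Eph and ephrin genes below it; filled points passed the edgeR test. Epha5 has the largest rise of the 22, at 2.52 in HARE5Hs/Hs and 2.94 in WT, and Epha2, Ephb4 and Efna5 fell in both genotypes.

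Across genes, levels were compared as FPKM, which is scaled to gene length and deposited by the authors. In E14.5 HARE5Hs/Hs cortex the order was Efnb1, Efnb2, Epha4, Epha3, Ephb2, Epha5, Ephb1, Epha7, Ephb3 and Efna5. Efnb1 spanned 83.6 to 88.0 FPKM there and Efna5 1.32 to 1.60 FPKM, and the only neighbours whose libraries overlapped were Efnb1 with Efnb2 and Ephb2 with Epha5. In E14.5 WT cortex Epha4 came first, at 76.0 to 83.7 FPKM, followed by Efnb1, Efnb2, Ephb2, Epha3, Epha5, Ephb1, Epha7, Ephb3 and Efna5, the last at 1.51 to 1.83 FPKM. There Epha4 overlapped with Efnb1, Efnb1 with Efnb2, Ephb2 with Epha3 and Epha3 with Epha5. In E12.5 HARE5Hs/Hs cortex the order was Efnb1, Efnb2, Epha4, Ephb2, Epha3, Epha7, Ephb1, Epha5, Ephb3 and Efna5, from 88.3 to 98.4 FPKM for Efnb1 down to 4.0 to 8.25 FPKM for Efna5. In E12.5 WT cortex it was Efnb1, Efnb2, Ephb2, Epha4, Epha3, Epha7, Ephb1, Ephb3, Efna5 and Epha5, with Epha5 last at 2.95 to 6.10 FPKM. Epha4 and Ephb2 overlapped at E12.5 in both genotypes, as did Efnb2 and Ephb2 in WT, and from Epha3 downwards each gene overlapped the next. Epha5 took the sixth place at E14.5 in both genotypes, and the last or the third from last at E12.5.

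Within the family, the summed level of the EphA class was higher at E14.5. The 9 EphA genes together measured 179 ± 11.8 FPKM in E14.5 HARE5Hs/Hs, 161 ± 12.4 FPKM in E14.5 WT, 82.8 ± 18 FPKM in E12.5 HARE5Hs/Hs and 79.6 ± 6.8 FPKM in E12.5 WT cortex (SD, n = 3 each). For the 5 EphB genes the sums were 86.1 ± 5.6 FPKM in E14.5 HARE5Hs/Hs, 93.6 ± 7.0 FPKM in E14.5 WT, 81.8 ± 4.9 FPKM in E12.5 HARE5Hs/Hs and 93.1 ± 7.9 FPKM in E12.5 WT cortex. Ephrin-A genes (5) summed to 52.1 ± 1.8 FPKM in E14.5 HARE5Hs/Hs, 49.5 ± 5.4 FPKM in E14.5 WT, 52.9 ± 3.7 FPKM in E12.5 HARE5Hs/Hs and 56.7 ± 5.7 FPKM in E12.5 WT cortex. No test was run on these sums. Ephrin-B genes (3) summed to 199 ± 6.5 FPKM in E14.5 HARE5Hs/Hs, 174 ± 10.8 FPKM in E14.5 WT, 176 ± 11.7 FPKM in E12.5 HARE5Hs/Hs and 175 ± 20.5 FPKM in E12.5 WT cortex.

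Shares within a class went with a gene's own change for Epha5, Efna5 and Efna3, but not for every gene. Epha4, which rose in level, made up 41.0 ± 3.2% of the EphA class in E14.5 HARE5Hs/Hs and 50.3 ± 2.6% in E14.5 WT cortex. At E12.5 its share was 52.4 ± 4.8% in HARE5Hs/Hs and 53.0 ± 6.5% in WT cortex. Epha5 made up 21.8 ± 1.1% of the EphA class in E14.5 HARE5Hs/Hs, 19.4 ± 0.9% in E14.5 WT, 7.63 ± 4.1% in E12.5 HARE5Hs/Hs and 5.18 ± 1.8% in E12.5 WT cortex. Epha7 made up 5.67 ± 0.7% in E14.5 HARE5Hs/Hs, 6.17 ± 1.1% in E14.5 WT, 14.3 ± 3.6% in E12.5 HARE5Hs/Hs and 15.1 ± 0.8% in E12.5 WT cortex, so its share was lower at E14.5 although its own level did not pass the test. Ephb2 was 49.4 ± 3.0% of the EphB class in E14.5 HARE5Hs/Hs, 46.8 ± 1.3% in E14.5 WT, 47.9 ± 1.0% in E12.5 HARE5Hs/Hs and 49.0 ± 1.6% in E12.5 WT cortex. Efna5 was 2.77 ± 0.3% of the ephrin-A class in E14.5 HARE5Hs/Hs, 3.48 ± 0.6% in E14.5 WT, 11.3 ± 3.3% in E12.5 HARE5Hs/Hs and 10.5 ± 3.0% in E12.5 WT cortex. Efna3 ran the other way, with 29.1 ± 4.3% in E14.5 HARE5Hs/Hs, 28.4 ± 2.6% in E14.5 WT, 11.9 ± 3.8% in E12.5 HARE5Hs/Hs and 11.9 ± 4.3% in E12.5 WT cortex. These shares were not tested.

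**Figure D3:**
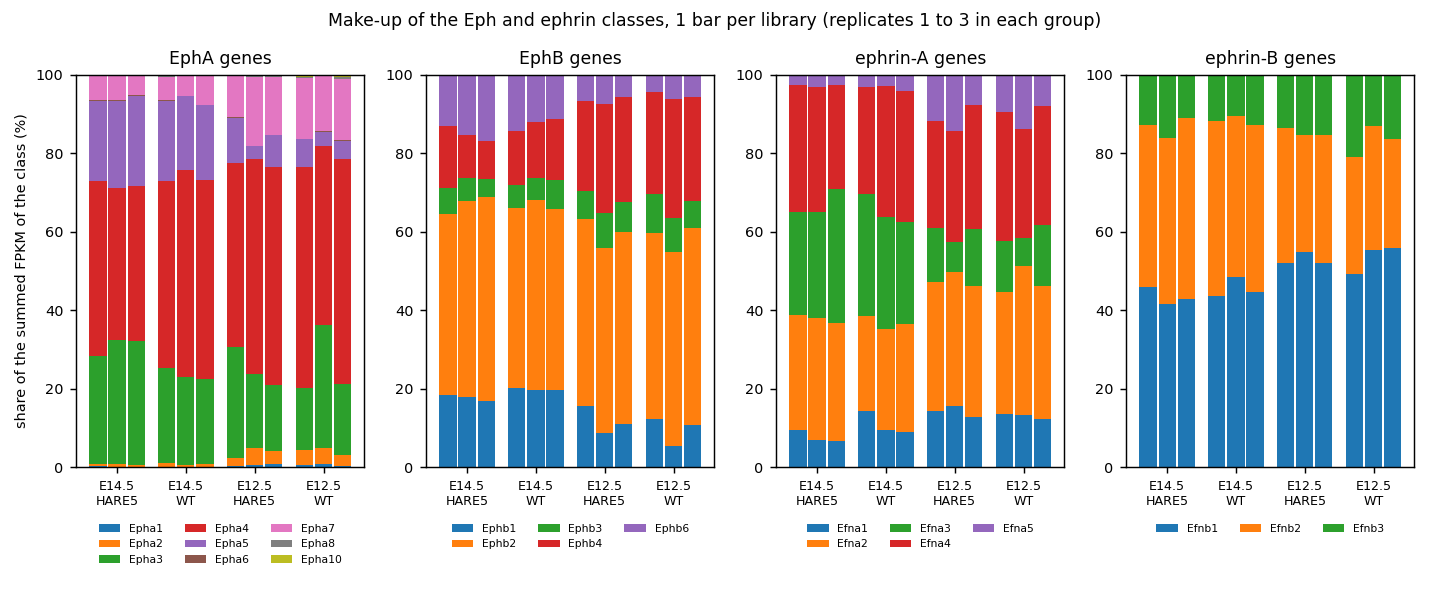
Share of the summed FPKM of each class (vertical axis, %) taken by each Eph or ephrin gene, 1 stacked bar per library, grouped left to right as E14.5 HARE5Hs/Hs, E14.5 WT, E12.5 HARE5Hs/Hs and E12.5 WT. The Epha5 share is 21.8% in E14.5 HARE5Hs/Hs, 19.4% in E14.5 WT, 7.63% in E12.5 HARE5Hs/Hs and 5.18% in E12.5 WT, and the Efna5 share is lower at E14.5.

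The other 12 genes of the family, listed in full by name and not by how they moved, showed both directions. In HARE5Hs/Hs 4 rose, 3 fell and 5 did not pass, where 45.7% of all tested genes passed. In WT 2 rose, 4 fell and 6 did not pass, where 35.2% of all tested genes passed. Their median log2 fold change was -0.08 in HARE5Hs/Hs and -0.45 in WT. Ephb6, a receptor without kinase activity, rose by a log2 fold change of 1.25 in both genotypes, and the ligand Efna3 rose by 1.27 in HARE5Hs/Hs and 1.09 in WT. Ephb4, the receptor of venous endothelium, fell by 1.01 in HARE5Hs/Hs and 0.89 in WT, and Epha2 fell by 1.25 in HARE5Hs/Hs and 1.34 in WT. Epha6 (1.76) and Epha8 (1.24) rose and Efna1 (-0.90) fell in HARE5Hs/Hs, and Efna2 (-0.58) and Efnb3 (-0.49) fell in WT. In WT Epha6 (1.59), Epha8 (0.99) and Efna1 (-0.42) were not called, and in HARE5Hs/Hs Efna2 (-0.19) and Efnb3 (0.03) were not called. None of the 12 was called for a difference between the genotypes in the age change, beside 0% of all tested genes. Epha6 rested on few counts, 69 in E14.5 HARE5Hs/Hs against 24 in E12.5 HARE5Hs/Hs over 3 libraries. Epha1 and Epha10, with at most 74 counts over the 3 libraries of any group, and Efna4 did not pass in either genotype. In the same annotation Efna3 shares 344 exonic bases with Gm15998, Epha6 107 with Gm9017 and Ephb4 33 with Zan, each on the opposite strand. The fall of Ephb4 went with that of the endothelial list, of whose 8 genes 8 fell in HARE5Hs/Hs and 6 in WT. Among all tested genes 22% fell in HARE5Hs/Hs and 15.2% in WT. The part of that list in the fall of Ephb4 was not tested.

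Of 35 listed genes that carry or modify Eph and ephrin signals, 34 were tested, since Grb7 had too few counts. In HARE5Hs/Hs 17 rose and 8 fell, with a median log2 fold change of 0.31, where 23.7% of all tested genes rose and 22% fell. In WT 12 rose and 7 fell, with a median of 0.04, where 20% of all tested genes rose and 15.2% fell. On the log2 scale Itsn1, a Cdc42 exchange factor that works with EphB2, rose by 0.93 in HARE5Hs/Hs and 0.78 in WT. Kalrn, a Rac exchange factor downstream of EphB receptors, rose by 1.48 in HARE5Hs/Hs and 1.09 in WT. Fyn, a Src-family kinase, rose by 0.78 in HARE5Hs/Hs and 0.68 in WT. Anks1b, an adaptor protein, rose by 1.62 in HARE5Hs/Hs and 1.65 in WT. The adaptor Nck2 rose by 0.61 in HARE5Hs/Hs and was not called in WT, at 0.16. The adaptor Grb10 changed by -0.79 in HARE5Hs/Hs and -0.48 in WT, and the phosphatase Acp1 by -0.59 in HARE5Hs/Hs and -0.36 in WT. Nck1 (-0.83) and Rgs3 (-0.41), a regulator of signalling from ephrin-B, fell in HARE5Hs/Hs and were not called in WT, at -0.35 and -0.25. Tiam1 (-0.45), a Rac exchange factor, and Sipa1l1 (-0.26), a Rap regulator, fell in WT. In HARE5Hs/Hs they were not called, at -0.06 and -0.11. No partner was called for a difference between the genotypes in the age change, beside 0% of all tested genes.

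None of the 10 genes passed the test between HARE5Hs/Hs and WT, at either age or averaged over ages. At E14.5, 0 of the 10 and 0% of all tested genes had an edgeR adjusted p under 0.05; at an unadjusted p under 0.05 the counts were 0 of 10 and 1708 of 14311, and DESeq2 called 0 of 10 and 35 genes in all. Without E14.5 HARE5Hs/Hs replicate 1, edgeR called 19 genes at E14.5. At E12.5 the calls were again 0 of 10 and 0%, with 1 of 10 (Ephb2) and 322 genes under an unadjusted p of 0.05, and DESeq2 called 0. Averaged over ages 0 of 10 and 0% were called, with 1 of 10 (Ephb2 again) and 1366 genes under an unadjusted p of 0.05, and DESeq2 called 0. limma on log2(FPKM + 1) called 0 genes in each of these comparisons. Of the other 12 family genes 0 were called at E14.5 and 0 at E12.5 by edgeR, with 3 at E14.5 and 0 at E12.5 under an unadjusted p of 0.05. Of the 34 signalling partners 0 were called at either age, with 7 at E14.5 and 2 at E12.5 under an unadjusted p of 0.05.

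At E14.5 the libraries of Epha3, Efnb2, Epha4 and Ephb1 did not overlap between genotypes. The share of all tested genes without overlap was not counted, so no reading is drawn from how many of the 10 genes separated. Epha3 (177 to 229 CPM in E14.5 HARE5Hs/Hs against 125 to 161 CPM in E14.5 WT) and Efnb2 (329 to 388 CPM in E14.5 HARE5Hs/Hs against 293 to 319.5 CPM in E14.5 WT) had every HARE5Hs/Hs library higher. Epha4 (418 to 465 CPM in E14.5 HARE5Hs/Hs against 474 to 524 CPM in E14.5 WT) and Ephb1 (59.4 to 73.7 CPM in E14.5 HARE5Hs/Hs against 77.1 to 90.6 CPM in E14.5 WT) had every HARE5Hs/Hs library lower. None was called, beside 0% of all tested genes. The log2 fold changes were 0.54 for Epha3 (95% interval -0.11 to 1.20, edgeR adjusted p = 0.467), 0.19 for Efnb2 (-0.07 to 0.46, edgeR adjusted p = 0.514), -0.16 for Epha4 (-0.43 to 0.10, edgeR adjusted p = 0.580) and -0.30 for Ephb1 (-0.89 to 0.29, edgeR adjusted p = 0.653). In E14.5 HARE5Hs/Hs, replicates 1 to 3 had neuron sums of 4176, 5609 and 5843 CPM, against 4484, 3833 and 3414 CPM in E14.5 WT, and within each genotype Epha3, Epha5 and Efnb2 ran in the same order as these sums. Epha4 followed the order of the sums in neither genotype. Ephb1 followed it in E14.5 WT and ran in the reverse order in E14.5 HARE5Hs/Hs. At E12.5, Epha3 and Efnb2 followed the sums in HARE5Hs/Hs but not in WT. Replicates 1 to 3 of E12.5 WT had sums of 1458, 1368 and 1425 CPM. There Efnb2 ran in the reverse order, at 188, 253 and 201 CPM, and Epha3 was highest in replicate 2, at 96.9 CPM. The share of all tested genes that ran in the order of the sums was not counted. The part of the neuron markers in the genotype differences at E14.5 was not tested.

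For the rest at E14.5 the log2 fold changes of HARE5Hs/Hs over WT lay between -0.26 (Efna5) and 0.30 (Epha5), and the interval of Epha5, -0.59 to 1.19, was the widest. Epha7 (-0.24 to 0.30), Ephb2 (-0.23 to 0.10) and Efnb1 (-0.16 to 0.36) had the narrowest. At E12.5 the Ephb2 libraries did not overlap between genotypes, with 176 to 191 CPM in HARE5Hs/Hs and 201 to 224 CPM in WT. Here too the share of all tested genes without overlap was not counted. Ephb2 was not called. Its log2 fold change was -0.21 (95% interval -0.38 to -0.05, edgeR adjusted p = 1), and averaged over ages -0.14 (-0.26 to -0.02, edgeR adjusted p = 0.508). Epha5 had the largest estimate at E12.5, 0.71, with an interval of -0.23 to 1.65; it was 0.11 without E12.5 HARE5Hs/Hs replicate 1, the library with the high neuron sum. The other 8 lay between -0.29 (Ephb3) and 0.13 (Efnb2).

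**Figure D4:**
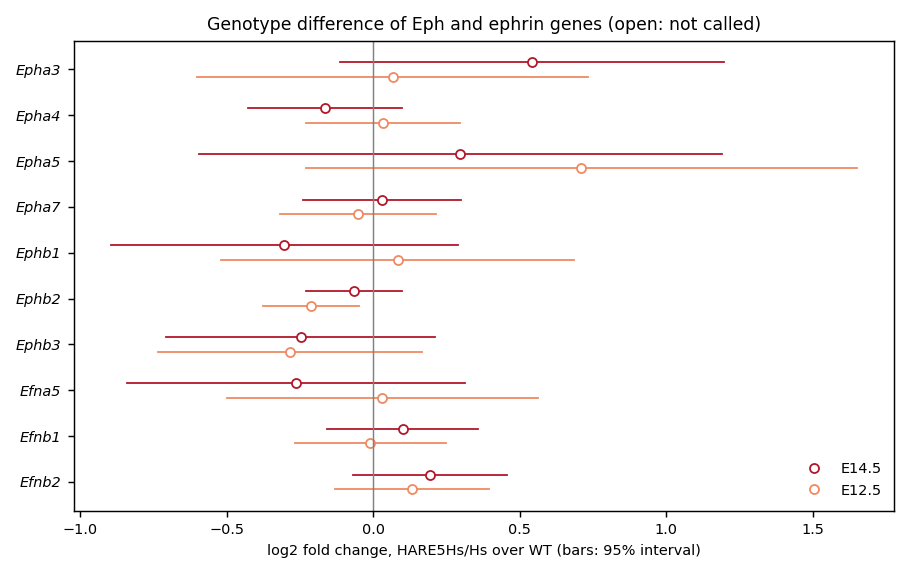
Log2 fold change of HARE5Hs/Hs over WT for the 10 genes at E14.5 (dark red) and E12.5 (orange) with 95% intervals; open points did not pass the edgeR test, which is all 20 of them. The interval of Ephb2 at E12.5, -0.38 to -0.05, lies below 0, and the other 19 cross it.

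The age change itself was not called different between the genotypes for any of the 10. By edgeR's interaction test 0 of 10 and 0% of all tested genes passed; 0 of 10 and 731 genes had an unadjusted p under 0.05, and DESeq2 called 0 of 10 and 1 gene in all. Epha3 changed by 1.58 in HARE5Hs/Hs and 1.10 in WT, a difference of 0.48 (95% interval -0.46 to 1.41, edgeR adjusted p = 0.921). For Epha5 the difference was -0.41 (-1.71 to 0.88, edgeR adjusted p = 0.955), and for Efna5 -0.29 (-1.08 to 0.49, edgeR adjusted p = 0.941).

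Genes with the most similar pattern were found for the 2 members with the largest mean age change in each direction, as the root mean square difference of centred log2 CPM over the 12 libraries and 11981 genes. Closest to Epha5 were Dscam, a neuronal adhesion molecule, at 0.19, Nkain3 at 0.21 and Gpm6a, a neuronal membrane glycoprotein, at 0.25, where the median gene was at 1.58. Closest to Epha3 were Ctnnd2 (0.20), a catenin of neuronal junctions, Otud7a (0.21) and Wdr47 (0.21), with a median of 0.85. For Efna5 they were Mdfi (0.19), Peg10 (0.22), an imprinted gene, and Metrn (0.23), with a median of 1.00, and for Ephb3 Ddias (0.15), Antxr1 (0.16) and Khnyn (0.16), with a median of 0.42. The 12 libraries are shared by all these distances. Among the 10 members themselves, Ephb2 with Efnb1 (0.22) and Epha7 with Ephb2 (0.22) were closest, and Epha5 with Efna5 (2.51) were farthest apart.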

How the data were processed

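Cortices of single embryos were microdissected, and libraries were made with a stranded mRNA kit, per the labels' protocols. STAR, DESeq2 and the build mm39 are named in the submitters' processing notes, without versions, and the tool used for counting is not given there. The deposited tables, per the file headers, hold the authors' expected counts (whole numbers here) and FPKM of each library. They also hold the authors' own comparison of E14.5 with E12.5 in each genotype, as deposited log2 fold changes, p-values and adjusted p-values. The 2 tables agree in all count cells, and 12 columns in each, of 6 libraries matching no sample, were not used.

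The counts were analysed with R 4.3.3 and edgeR 4.0.16: filterByExpr with a minimum count of 10, TMM scaling, and a 2-sided quasi-likelihood F test over all 12 libraries with 1 mean per group and no block. P-values were adjusted by Benjamini-Hochberg within a contrast over all tested genes, with a threshold of 0.05. The SE is the log2 fold change divided by the square root of F. The fit was tested on simulated counts. Alternatives were DESeq2 1.42.0, DESeq2 size factors in edgeR, other filters, only the compared libraries, the replicate number as a block, Xist as a covariate, limma 3.58.1 on log2(FPKM + 1), and each library left out. Promoters came from RefSeq (GRCm38.p6), another build than the files'. Members, gene lists and naming rule were chosen with earlier results of these data known: all 10 members, every other family gene that passed, up to 4 signalling partners per direction with the smallest p, and the closest genes by pattern. The promoter motifs were chosen after the values were seen. The listed partner Afdn appears in the tables as Mllt4. One listed marker each of cerebral cortex and of neurons is not reported here and stayed out of the sums.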

Additional observations from a re-analysis of the deposited data

How the results depend on the processing

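Across ages, the number of the 10 genes called stayed within 1.5 times of the value reported under every alternative run. The number of all genes called in WT was 3245 to 4843 when 1 library was left out, lowest without E14.5 WT replicate 1, against 5041. In HARE5Hs/Hs 59 of 60 values with 1 library left out, and 76 of 80 under other alternatives, kept direction and call; the others were the Ephb1 calls, which also came with no filter (adjusted p = 0.0479) and with only the compared libraries (adjusted p = 0.0184). Of all genes at E14.5 between genotypes, DESeq2 called 35 and leaving out 1 library 0 to 19, highest without E14.5 HARE5Hs/Hs replicate 1; in the interaction DESeq2 called 1 and leaving out 1 library 0 to 2, highest without that same library. Signs turned mostly for values near 0. The Epha5 interaction, at -0.41, also turned, to 0.184 without E12.5 HARE5Hs/Hs replicate 1. Between genotypes at E12.5, Efna5 was -0.0113 with Xist as a covariate and Efnb1 0.0023 with limma. With 1 library left out the ranges that crossed 0 were as follows, and the cause was not tested. With age in WT, Ephb2 spanned -0.0879 to 0.0483. Between genotypes at E14.5, Epha7 spanned -0.0803 to 0.1037. At E12.5 Epha3 spanned -0.4021 to 0.4601, Epha4 -0.0481 to 0.1657, Epha7 -0.1375 to 0.0271, Ephb1 -0.2255 to 0.407, Efna5 -0.257 to 0.261 and Efnb1 -0.1496 to 0.1026. Averaged over ages, Epha4 spanned -0.1058 to 0.0011, Epha7 -0.0653 to 0.0356, Ephb1 -0.2639 to 0.0586, Efna5 -0.2588 to 0.0003 and Efnb1 -0.0176 to 0.1018. In the interaction, Epha5 spanned -0.842 to 0.184, Epha7 -0.03 to 0.1709, Ephb3 -0.1533 to 0.2199, Efnb1 -0.0018 to 0.2641 and Efnb2 -0.0773 to 0.1732.

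No label says that a replicate number is shared between groups. Same-numbered libraries of the genotypes correlated, after removing group means, at -0.112, -0.145 and -0.443 at E14.5 and 0.0963, 0.336 and 0.124 at E12.5, and each correlated best with its own number in 0 of 6 and 5 of 6 libraries. Between ages 0 of 6 did in HARE5Hs/Hs and 3 of 6 in WT. With the replicate number as a block 6 of the 10 genes were called in HARE5Hs/Hs, Ephb1 included (0.72, adjusted p = 0.028), and 6 in WT, with 6248 and 4714 genes in all. Between genotypes at E12.5, the block left 0 of the 10 genes and 0 genes in all called, and the same held at E14.5. The block turned the interaction of Ephb3 to -0.0156. With 3 embryos per group, the printed 95% intervals give the precision of each difference.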

Other observations

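E12.5 HARE5Hs/Hs replicate 1 had the highest level of its group for Epha5, Epha3, Ephb1, Efnb1 and Efnb2. It had 86.4 CPM of Epha5 against 16.25 and 52.7 CPM in replicates 2 and 3, 107 CPM of Epha3 against 45.2 and 54.4 CPM, and 54.9 CPM of Ephb1 against 34.0 and 38.4 CPM. For Efnb1 it had 312 CPM against 292 and 280.4 CPM, and for Efnb2 269 CPM against 205.5 and 229 CPM. The same library had the highest E12.5 sums of neuron markers (2309 CPM), intermediate progenitor markers (471 CPM) and ventral telencephalon markers (185 CPM), while its Efna5 level, 30.0 CPM, lay between those of the other 2.

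E12.5 WT replicate 2 had the highest Epha3 of its group, 96.9 CPM, with the lowest Epha5, 22.4 CPM, and the lowest Ephb1, 20.8 CPM. Epha3 thus did not move together with Epha5 and Ephb1 among the E12.5 WT embryos, while Epha5 and Ephb1 shared the same order of libraries.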
